A study of Mus musculus with 8 samples.

Results

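The circadian clock is a feedback loop of transcription factors that runs in most mammalian cells, and 10 of its genes are described here over 8 arrays of mouse intestine. They were taken as every probe set that the platform annotation assigned to exactly 1 of Per1, Per2, Per3, Dbp, Tef, Nr1d1, Nr1d2, Arntl, Cry1 and Bhlhe41. This gave 23 of the 45101 probe sets on the array. Of these, 20 lay above a signal of 64.1 on at least 2 arrays, and they covered 9 of the 10 genes. The exception was Bhlhe41, a repressor of the clock, whose 2 probe sets reached at most 59.1 and 15.0 on any array, so it was not tested.

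All mice were C57BL/6 and 110 days old. The arrays held tumours from ACKR2KO_ApcMin mice (labelled ACKR2-/- ApcMin/+), tumours from ApcMin mice (ApcMin/+), and tumour-free gut of ACKR2KO mice (ACKR2-/-) and of wild-type (WT) mice, each from colon and from small intestine, for which the labels name the ileum in the tumours only. ApcMin is a germline mutation of the tumour suppressor gene Apc that gives intestinal tumours, and ACKR2 (D6) scavenges inflammatory CC chemokines without signalling like other chemokine receptors. RNA was pooled within a genotype and tissue, so each of the 8 groups is 1 array with no replicate, and the non-tumour tissue came from mice without ApcMin. Genotype at the Apc locus and tumour status therefore cannot be told apart. The hour of tissue collection and the number of mice per pool were not given in the sources used here. The clock genes cycle with time of day, and the part of collection time in any difference below was not tested.

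In this loop, the protein of Arntl (BMAL1) pairs with CLOCK and activates genes through E-box sequences. Its targets include the Per and Cry genes, whose proteins inhibit the pair, and Nr1d1 and Nr1d2, which encode the nuclear receptors REV-ERB alpha and beta and repress Arntl through ROR elements. Dbp and Tef encode related activators that bind D-boxes and carry the rhythm to output genes. In cycling tissues, Dbp, Nr1d1 and the Per genes are high when Arntl is low, and the opposite.

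Of the 10 genes, 9 had an entry in RefSeq's promoter windows (GRCm38.p6), with 12 windows in all, each 300 bases long, from 250 before to 50 after a start. The letters searched on both strands were CACGTG (E-box), TTATGTAA (D-box) and AGGTCA (the core of a ROR element), and no 2 of these overlapped in the stretches below. CACGTG was found for 4 of the 9 genes, TTATGTAA for 1 and AGGTCA for 3. Over all 32851 windows of that length, 7.15% held CACGTG, 0.938% held TTATGTAA and 16.3% held AGGTCA. These 4 stretches are shown because each holds at least 1 of these runs of letters, given in capitals. They are the 250 bases before the start of Per1 (chr11:69098699-69098948, plus strand), Per3 (chr4:151044666-151044915, minus strand) and Tef (chr15:81802423-81802672, plus strand), and 30 bases just after a start of Arntl (chr7:113207530-113207559, plus strand).
Per1: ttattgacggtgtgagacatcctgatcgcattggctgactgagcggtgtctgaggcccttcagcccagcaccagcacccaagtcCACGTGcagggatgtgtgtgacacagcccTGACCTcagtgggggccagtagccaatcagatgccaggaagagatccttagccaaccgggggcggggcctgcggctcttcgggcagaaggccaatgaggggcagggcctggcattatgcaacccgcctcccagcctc
Per3: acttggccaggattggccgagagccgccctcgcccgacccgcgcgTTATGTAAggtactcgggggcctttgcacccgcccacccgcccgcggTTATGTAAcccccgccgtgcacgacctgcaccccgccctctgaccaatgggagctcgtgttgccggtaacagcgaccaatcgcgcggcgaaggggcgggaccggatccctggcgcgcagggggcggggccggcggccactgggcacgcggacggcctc
Tef: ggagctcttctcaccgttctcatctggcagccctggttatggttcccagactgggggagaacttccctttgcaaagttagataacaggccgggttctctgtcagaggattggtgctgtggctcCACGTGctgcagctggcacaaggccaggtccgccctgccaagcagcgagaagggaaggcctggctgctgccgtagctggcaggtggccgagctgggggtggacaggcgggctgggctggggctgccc
Arntl: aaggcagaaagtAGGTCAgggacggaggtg

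In Per1 the E-box letters began at -166 from the start and AGGTCA, on the reverse strand, at -137. Per3 held TTATGTAA at -205 and at -158, and Tef held CACGTG at -127. In Arntl, AGGTCA began 32 bases after the start of 1 of its 2 windows. The windows of Dbp and Nr1d1 held none of the 3. A match is a run of letters in the reference and not a measured binding site.

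The arrays stood apart in ways that touch these genes. Signals were MAS5 intensities scaled by the authors to a common trimmed mean. The median signal ran from 85.5 to 103 on the 4 arrays with ACKR2 loss and from 115 to 133 on the 4 without. It thus cannot be told apart from ACKR2 genotype. Xist, which is transcribed in female cells, and the Y-linked Eif2s3y differed between pools. Eif2s3y was between 888 and 1501 on 6 arrays but at 2.92 and 2.66 in the WT pools of colon and small intestine, while Xist was at 77.9 in ACKR2KO_ApcMin colon and 127 in ACKR2KO_ApcMin small intestine and at least 2818 elsewhere. The ratio of the 3' to the 5' control probe set of Actb was 1.28 to 1.39 on the 4 arrays with ACKR2 loss and 1.13 to 1.17 on the 4 without. The same ratio of Gapdh overlapped, at 0.740 to 0.866 with ACKR2 loss and 0.772 to 0.952 without. The Ackr2 probe set lay between 71.3 and 153 on all 8 arrays and did not separate the genotypes.

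The tissue labels were set against genes picked after the data were seen. Fabp6, an ileal bile acid binding protein, was 26097 to 39468 in small intestine and 90.4 to 324 in colon. Hoxb13, a homeobox gene of the distal colon, was at most 5.81 in small intestine and at least 1866 in colon. Car1, a carbonic anhydrase of colonocytes, was 18864 in the WT small intestine array and 42.3 to 114 on the other 3 small-intestine arrays, against 9191 to 19254 in colon. The water channel gene Aqp8 was 958 in WT small intestine and 105 to 122 on the other 3. The WT small-intestine array thus went against its label for Car1 and Aqp8 but not for Hoxb13. Because of this and of the sex markers, the tumour and tissue comparisons are also given without both WT arrays, which leaves 1 residual degree of freedom and 0 clock genes called. The ACKR2 effect in non-tumour tissue cannot be formed without them.

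**Figure D1:**
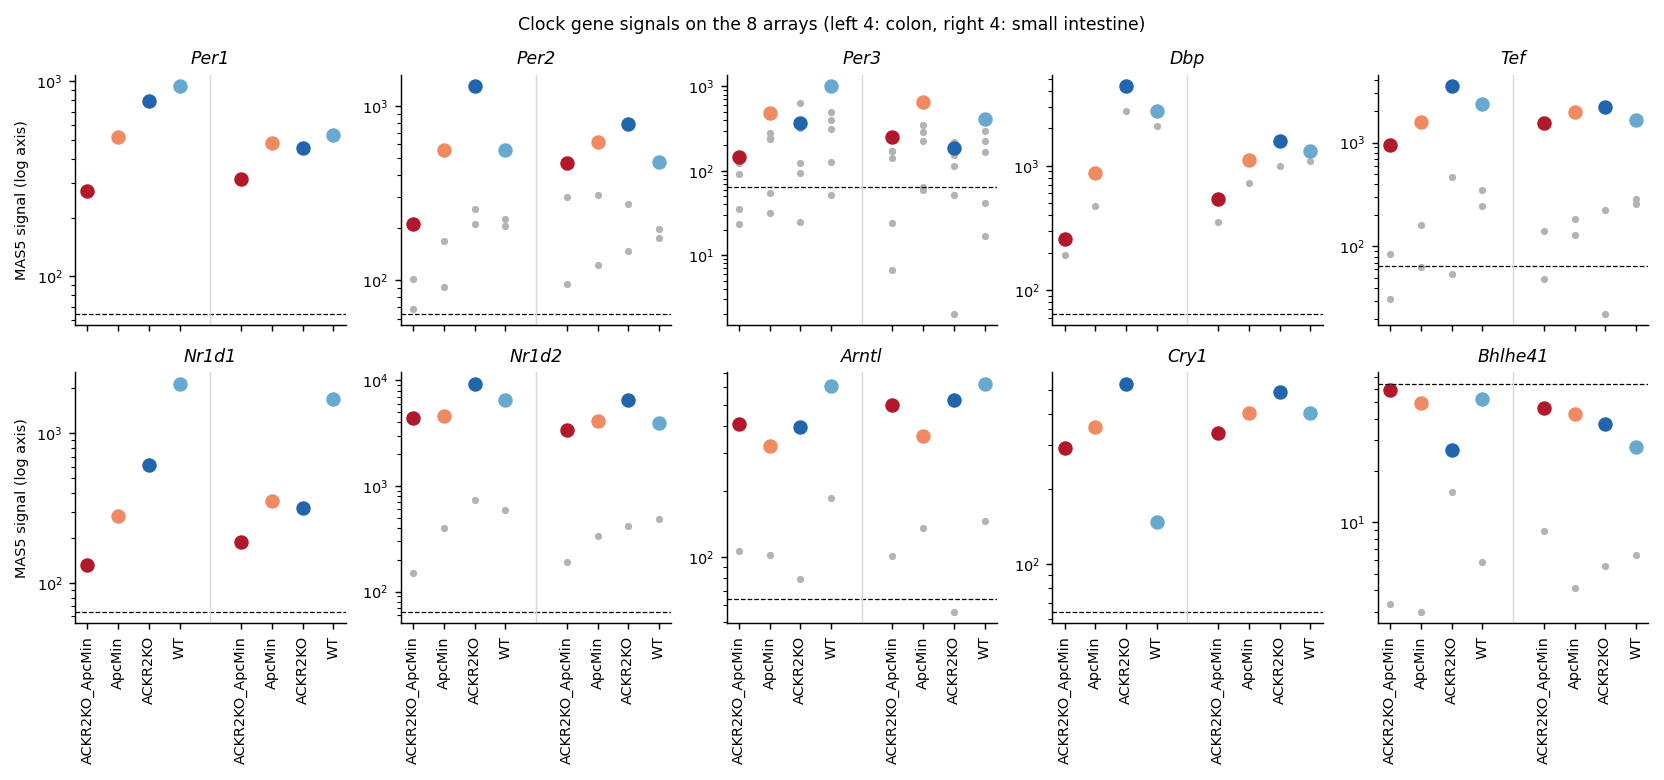
MAS5 signal (log axis) of each of the 10 clock genes, with the untested Bhlhe41, on the 8 arrays, colon on the left and small intestine on the right. Coloured points are the probe set with the highest mean, grey points are the other probe sets, and the dashed line is the floor of 64.1. Dbp in ACKR2KO_ApcMin colon tumours, at 256, is the lowest of its 8 values, and Nr1d1 stands out in the 2 WT arrays at 2143 and 1710.

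All fits below come from 1 limma model over 14023 genes. It has 2 residual degrees of freedom, and its standard error (SE) measures how far ACKR2 effects differed between colon and small intestine, not how mice differ. Differences are in log2 units, values under the floor were set to it, and calls were made at 0.05 after Benjamini-Hochberg adjustment. In whole tissue, fewer cells of a type and less RNA per cell cannot be told apart.

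In colon tumours, 7 of the 9 clock genes were lower than in non-tumour colon and 0 were higher. They were the outputs Dbp and Tef, the inhibitors Per1, Per2 and Per3, and the Arntl repressors Nr1d1 and Nr1d2. Of all genes tested, 12.6% were called lower and 11.0% higher, and the median difference was -1.21 over the 9 clock genes and 0.00 over all genes. Arntl and Cry1 were not called in this comparison. All 7 calls were lost when any 1 array was left out, which leaves 1 residual degree of freedom, as were the calls of all other genes. The 7 were also lost when genes near the floor were kept in the test.

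Dbp changed most. Its signal was 256 in ACKR2KO_ApcMin and 870 in ApcMin colon tumours, against 4392 in ACKR2KO and 2775 in WT colon. Both tumour arrays lay far below both non-tumour arrays. The fitted difference was -2.89 ± 0.22 (SE; adjusted p = 0.00176). The second Dbp probe set, 1418174_at, gave the same order of groups, with 190 in ACKR2KO_ApcMin and 476 in ApcMin tumours, against 2770 in ACKR2KO and 2085 in WT colon. Tef, the related D-box activator, had 949 in ACKR2KO_ApcMin and 1587 in ApcMin colon tumours, against 3512 in ACKR2KO and 2369 in WT colon. The groups did not overlap, and the fitted difference was -1.23 ± 0.16 (adjusted p = 0.00576).

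Nr1d1, which represses Arntl, had 131 in ACKR2KO_ApcMin and 281 in ApcMin colon tumours, against 611 in ACKR2KO and 2143 in WT colon. The tumour values were again below both non-tumour values, but the 2 non-tumour arrays were themselves far apart. The fit gave -2.57 ± 0.25 (adjusted p = 0.00298). Its partner Nr1d2 had 4364 and 4557 in the colon tumours of ACKR2KO_ApcMin and ApcMin mice, against 9268 in ACKR2KO and 6503 in WT colon. Here the tumours were close to each other, and the difference was smaller, at -0.80 ± 0.15 (adjusted p = 0.0151).

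Among the inhibitors of the BMAL1 and CLOCK pair, Per1 gave 275 in ACKR2KO_ApcMin and 517 in ApcMin colon tumours, against 797 in ACKR2KO and 949 in WT colon, a difference of -1.21 ± 0.21 (adjusted p = 0.0128). Per3 gave 148 in ACKR2KO_ApcMin and 483 in ApcMin tumours, against 368 in ACKR2KO and 1013 in WT colon. Its groups overlapped, since ApcMin tumours exceeded ACKR2KO colon, and the fitted difference was -1.19 ± 0.24 (adjusted p = 0.0203). Per2 gave 210 in ACKR2KO_ApcMin and 558 in ApcMin colon tumours, against 1298 in ACKR2KO and 556 in WT colon. Its fitted difference of -1.31 ± 0.30 (adjusted p = 0.0265) rested on 1 pair: ACKR2KO_ApcMin minus ACKR2KO was -2.63, while ApcMin minus WT was 0.01. Without the ACKR2KO_ApcMin colon array it was -0.81 (adjusted p = 0.264). Cry1, the other inhibitor, had 293 and 355 in ACKR2KO_ApcMin and ApcMin tumours, against 528 in ACKR2KO and 147 in WT colon, and its difference of 0.21 ± 0.39 was not called (adjusted p = 0.750).

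Arntl, the activator, had 406 in ACKR2KO_ApcMin and 325 in ApcMin colon tumours, against 397 in ACKR2KO and 610 in WT colon. The difference was -0.44 ± 0.22 and was not called (adjusted p = 0.211). The mean of Arntl was thus not above that of non-tumour colon. The 7 called genes had a lower mean in tumours and Cry1 had a higher one. For Arntl this did not hold in each pair. Between ACKR2KO_ApcMin and ACKR2KO colon Arntl differed by 0.03, and its other probe set, 1457740_at, by 0.43. Without both WT arrays the fitted difference of Arntl was 0.07. The 7 called genes then kept a negative difference, from -1.14 for Nr1d2 to -3.92 for Dbp, with Per2 at -2.38. With 1 residual degree of freedom none of them was called. Cry1 then gave -0.85. Without both ACKR2KO_ApcMin arrays the difference of Dbp was -1.77, that of Tef -0.61, that of Nr1d2 -0.47 and that of Per2 -0.12.

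Over probe sets, 19 of the 20 clock probe sets tested had a negative difference in colon tumours and 15 were called lower, as were 10.9% of all probe sets in that fit. The 5 not called were both sets of Arntl, the single set of Cry1, 1457350_at of Per2 and 1442243_at of Per3.

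**Figure D2:**
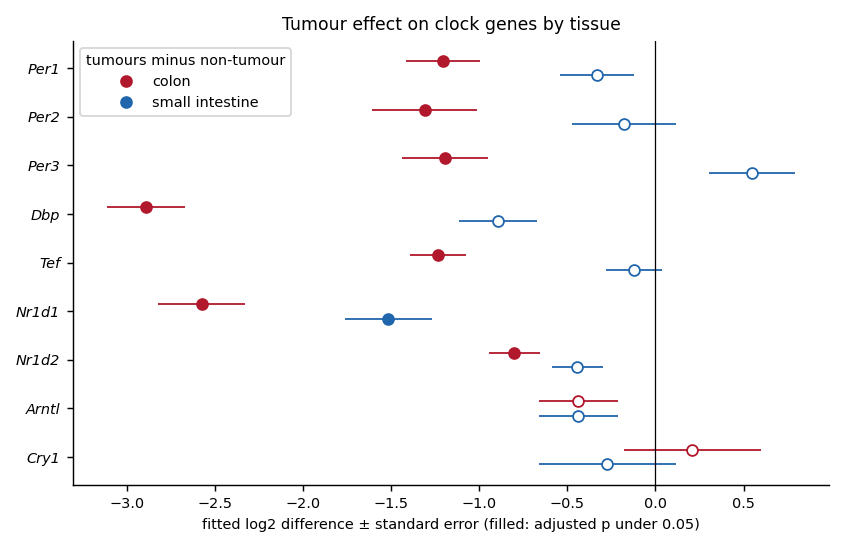
Fitted log2 difference of tumours minus non-tumour tissue for the 9 tested clock genes in colon and in small intestine, with error bars of 1 SE from the limma model. In colon 7 genes lie below 0 past the threshold, from Dbp at -2.89 to Nr1d2 at -0.80, and in small intestine only Nr1d1 does, at -1.52.

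In small-intestinal tumours, 1 of the 9 clock genes was called, Nr1d1, which was lower, where 1.20% of all genes were lower and 2.77% higher. Nr1d1 had 188 in ACKR2KO_ApcMin and 354 in ApcMin tumours, against 318 in ACKR2KO and 1710 in WT small intestine. Only the WT array stood apart, and ApcMin tumours were above ACKR2KO tissue. The fit gave -1.52 ± 0.25 (adjusted p = 0.0303), and -0.81 (adjusted p = 0.523) without both WT arrays, the WT small-intestine array being the one with the Car1 signal of colon.

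Dbp in small intestine had 541 in ACKR2KO_ApcMin and 1110 in ApcMin tumours, against 1590 in ACKR2KO and 1304 in WT tissue. Both tumours were below both non-tumour arrays, and the difference of -0.89 ± 0.22 did not pass the threshold (adjusted p = 0.0921). The other 7 genes lay between -0.44 for Nr1d2 and 0.55 for Per3. Arntl had 497 in ACKR2KO_ApcMin and 359 in ApcMin tumours, against 525 in ACKR2KO and 623 in WT tissue, a difference of -0.44 ± 0.22 (adjusted p = 0.341).

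The difference of Dbp was larger in colon tumours than in small-intestinal tumours. The fitted tumour effect in colon minus that in small intestine was -1.99 ± 0.31 (adjusted p = 0.0402), and Dbp was the only 1 of the 9 clock genes called, where 1.52% of genes were called lower. Per3, at -1.74 ± 0.34 (adjusted p = 0.0683), and Tef, at -1.11 ± 0.23 (adjusted p = 0.0716), did not pass. The Dbp call was lost under several other settings, though its difference stayed negative in each, at -2.18 without both WT arrays.

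Averaged over both tissues, 6 of 9 clock genes were lower in tumours (12.0% of all genes) and 0 higher. The largest were Nr1d1 at -2.05 ± 0.17 (adjusted p = 0.00179) and Dbp at -1.89 ± 0.16 (adjusted p = 0.00169), followed by Per1, Per2, Tef and Nr1d2 between -0.77 and -0.62. Per2 had the weakest call (-0.74 ± 0.21, adjusted p = 0.0472), and it was -0.50 without the ACKR2KO_ApcMin colon array, as it was without the ApcMin small-intestine array. Without both ACKR2KO_ApcMin arrays its sign turned, to 0.20. Without them Dbp was at -0.95, Per1 at -0.50, Nr1d2 at -0.24 and Tef at -0.16. Without both WT arrays Dbp was at -2.83, Per2 at -1.69, Nr1d1 at -1.49, Tef at -1.20, Per1 at -1.03 and Nr1d2 at -1.01, and none was called.

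Loss of ACKR2 in tumours gave 0 calls among the 9 clock genes, and 0.0357% of all genes were called in either direction. At an unadjusted p under 0.05 there were 6 clock genes and 2188 genes in all. The 6 were below ApcMin tumours in both tissues. Per3 differed by -1.71 in colon and -1.37 in small intestine between ACKR2KO_ApcMin and ApcMin tumours, and the fit gave -1.54 ± 0.24 (adjusted p = 0.128). Dbp differed by -1.77 and -1.04, with a fit of -1.40 ± 0.22 (adjusted p = 0.128).

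Nr1d1, Per2, Per1 and Tef also had a smaller signal in ACKR2KO_ApcMin than in ApcMin tumours on both tissues' arrays, with fitted differences of -1.0, -0.91, -0.77 and -0.55 that were not called. Arntl had the opposite sign in both tissues: it was higher by 0.32 in colon and by 0.47 in small intestine, and the fit of 0.40 ± 0.22 was not called (adjusted p = 0.436). Its other probe set, 1457740_at, differed by 0.07 and -0.43, with a fit of -0.18 ± 0.23. Read as single pairs, 4 of 9 clock genes were at least 2-fold lower in ACKR2KO_ApcMin than in ApcMin colon tumours (4.91% of all genes), namely Dbp, Per3, Per2 and Nr1d1. In small intestine there were 2, Dbp and Per3 (4.62% of all genes).

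In non-tumour tissue the picture differed from gene to gene. Nr1d1 was the only clock gene called on ACKR2 loss, and it was lower, at -2.12 ± 0.25 (adjusted p = 0.0435), where 0.556% of all genes were called lower and 0.128% higher. Its signal was 611 in ACKR2KO against 2143 in WT colon, and 318 in ACKR2KO against 1710 in WT small intestine. Per3 was at -1.30 ± 0.24 and did not pass (adjusted p = 0.0586).

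Per2, Nr1d2, Tef, Dbp and Cry1 had the other sign. Per2 had 1298 in ACKR2KO against 556 in WT colon, and 787 in ACKR2KO against 473 in WT small intestine, with a fit of 0.98 ± 0.30 (adjusted p = 0.118). Cry1 had 528 in ACKR2KO against 147 in WT colon, and 488 in ACKR2KO against 404 in WT small intestine, with a fit of 1.06 ± 0.39 (adjusted p = 0.167). Nr1d2 was at 0.61 ± 0.15 (adjusted p = 0.0818), Tef at 0.50 and Dbp at 0.47. None of the 5 was called at the authors' scaling. When each array was centred on its median, the median of all genes moved to 0.44, with 3620 genes called higher and 174 lower in place of 18 and 78, and these 5 were called higher beside Nr1d1 lower. Nr1d1 and Nr1d2, the 2 receptors that repress Arntl, had opposite signs at these probe sets, with -1.81 and 0.51 in colon and -2.43 and 0.70 in small intestine. The other set of Nr1d2, 1416959_at, had 0.30 in colon but -0.22 in small intestine, the sign of Nr1d1, and a fit of 0.04 ± 0.27.

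As single pairs, ACKR2KO against WT colon had 2 clock genes at least 2-fold lower (Nr1d1 and Per3; 5.11% of all genes) and 2 higher (Cry1 and Per2; 2.01% of all genes), and small intestine had Nr1d1 and Per3 lower (6.90% of all genes). The difference between the ACKR2 effects in tumours and in non-tumour tissue was called for 0 of 9 clock genes (0.00713% of all genes). At an unadjusted p under 0.05 it gave 6 clock genes and 1131 genes in all. Among these, Per2 was at -1.89 ± 0.42 (adjusted p = 0.549), Dbp at -1.88 ± 0.31 (adjusted p = 0.493), and Arntl at 0.83 ± 0.32 (adjusted p = 0.604).

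The 2 arms were then set side by side over the array pairs that differ in 1 factor. Over the 4 ACKR2 pairs, Dbp, Tef, Per2, Nr1d2 and Cry1 had the opposite sign to Arntl in 4 of 4 at the probe set with the highest mean. They were lower in tumours, where Arntl was higher, and higher in non-tumour tissue, where Arntl was lower. Of all tested genes, 3.95% had the opposite sign to Arntl in every ACKR2 pair. The signs held for all 5 with quantile normalization, but with each array centred on its median, Arntl was higher in all 4 pairs, by 0.01 to 0.78, and Dbp, Tef and Per2 were opposite to it in 2 of 4, Cry1 in 1 of 4 and Nr1d2 in 0 of 4. With 75th percentile centring the 5 were opposite in 2 or 3 of 4. The signs also depended on the probe set. In ACKR2KO against WT small intestine, where Arntl differed by -0.25, 1418174_at of Dbp differed by -0.12, 1450184_s_at of Tef by -0.17, 1417603_at of Per2 by -0.25 and 1416959_at of Nr1d2 by -0.22, all with the sign of Arntl. Per1, Per3 and Nr1d1 were instead lower with ACKR2 loss in all 4 pairs, as were 19.1% of all genes. At the authors' scaling they were thus opposite to Arntl in 2 of 4. Per1 was lower in 3 of 4 with quantile normalization and in 2 of 4 with median centring. Per3 and Nr1d1 became opposite to Arntl in 4 of 4 with median centring (3.74% of all genes) and in 3 of 4 with 75th percentile centring. Which clock genes were opposite to Arntl thus depended on the scaling.

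Multiplying all signals of an array by a common factor, as centring does, leaves the ratio of a gene to Arntl unchanged. Quantile normalization applies no common factor and can change the ratio. The ratios below are at the authors' scaling and at the probe sets with the highest mean. On the log2 scale, the ratio of Dbp to Arntl differed by -2.09 in colon and -1.51 in small intestine between ACKR2KO_ApcMin and ApcMin tumours. Between ACKR2KO and WT tissue it differed by 1.28 in colon and 0.53 in small intestine. The ratio was thus lower with ACKR2 loss in both tumour pairs and higher in both non-tumour pairs. For Per2 the same 4 differences were -1.73 and -0.88 in tumours and 1.84 and 0.98 in non-tumour tissue. Tef, Nr1d2, Cry1 and Per1 had these signs too, with Per1 at only 0.02 in non-tumour small intestine. All these ratios share the same Arntl values, which were higher with ACKR2 loss in tumours and lower in non-tumour tissue. A gene with no change would thus have these signs, and the share of all genes that had them was not computed. Nr1d1 and Per3 did not, and their ratios were lower with ACKR2 loss in all 4 pairs. For Nr1d1 the differences were -1.42 and -1.38 in tumours and -1.19 and -2.18 in non-tumour tissue. Those of Per3 were -2.03 and -1.84 in tumours and -0.84 and -0.89 in non-tumour tissue. For Per3 this depended on the probe set. Between ACKR2KO and WT, 1421087_at differed by 0.66 in colon and -0.05 in small intestine, where Arntl differed by -0.62 and -0.25. The ratio of that set to Arntl was thus higher in both. Set 1442243_at, at -1.33 and -0.57, had a lower ratio in both. These ratios show that the genes changed unequally, and not which of them changed.

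Over the 4 tumour pairs no clock gene was opposite to Arntl in 4 of 4 at the probe set with the highest mean. At the authors' scaling, Per2, Per3 and Cry1 were opposite to it in 3 of 4. The share of all genes opposite in 3 of 4 was not computed, and 3.05% were opposite in every tumour pair. With median centring Per2 and Per3 were opposite in 2 of 4 and Cry1 in 1 of 4. Cry1 was opposite in 2 of 4 with quantile normalization and with 75th percentile centring. Dbp, Per1 and Nr1d1 were lower in tumours in 4 of 4 pairs (15.8% of all genes), and Arntl was lower in 3 of 4, or in 4 of 4 with median centring. Arntl differed by 0.03 between ACKR2KO_ApcMin and ACKR2KO colon and by -0.91 between ApcMin and WT colon, and by -0.08 and -0.80 in small intestine. The 2 clear decreases were both against a WT array. Its other probe set, 1457740_at, differed by 0.43 and -0.87 in colon and by 0.65 and -0.11 in small intestine. The 0.65 is a bound, since the ACKR2KO value lay under the floor. At their sets with the highest mean, Per2 and Cry1 had the opposite sign to 1457740_at in each of these pairs, though some differences were near 0. The share of all genes opposite to that set was not computed. Other sets of Per2 differed: in ApcMin against WT colon, 1417603_at was at -1.16 and 1457350_at at -0.43, both with the sign of 1457740_at. Dbp in the same 4 pairs gave -4.10 and -1.67 in colon and -1.56 and -0.23 in small intestine. The tumour pairs and the ACKR2 pairs share arrays, so their signs are not independent of each other.

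Counted per pair, ACKR2KO_ApcMin tumours had 7 clock genes at least 2-fold lower than ACKR2KO tissue in colon (11.7% of all genes) and 1, Dbp, in small intestine (3.37%). ApcMin tumours had 3 at least 2-fold lower than WT tissue in colon, namely Nr1d1, Dbp and Per3 (8.91% of all genes), with Cry1 higher (6.74%). In small intestine they had 1 lower, Nr1d1 (3.94%).

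**Figure D3:**
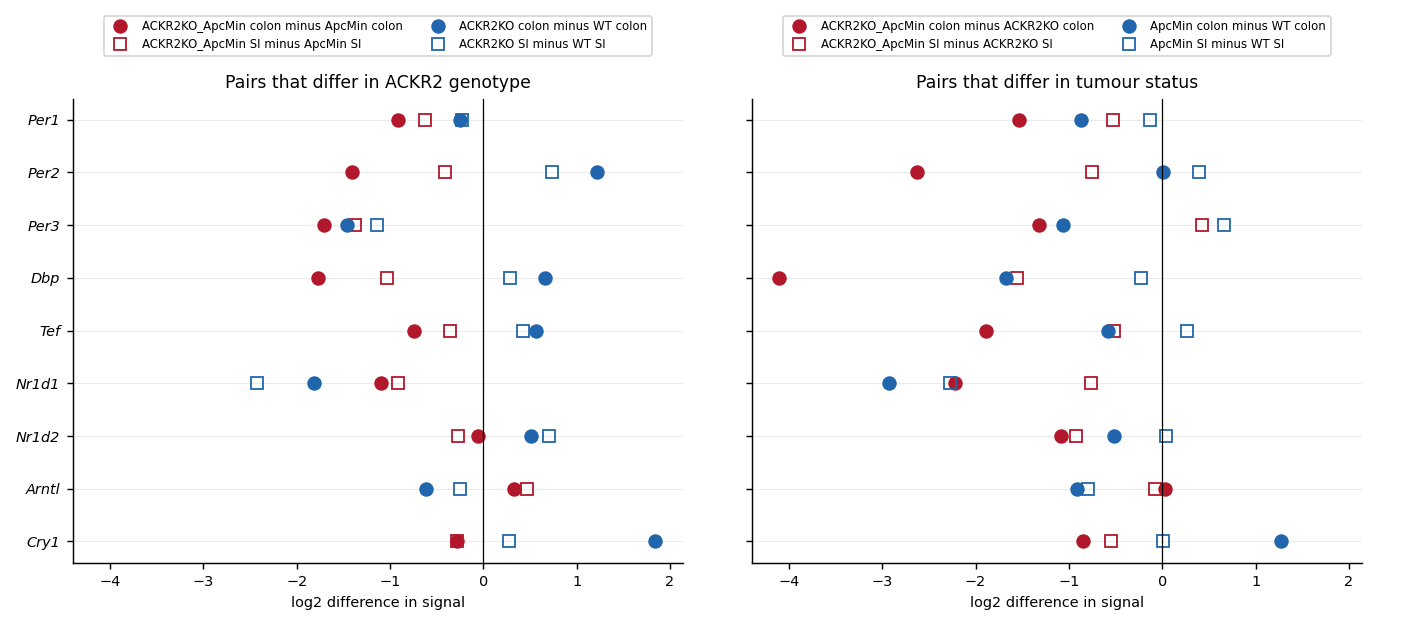
Log2 difference in signal of each clock gene in the 4 pairs of arrays that differ in ACKR2 genotype and the 4 that differ in tumour status, with no error bars because each point is 1 array against 1 other (SI, small intestine). At the authors' scaling Dbp runs, in the ACKR2 pairs, from -1.77 to 0.66 with the sign opposite to Arntl throughout, and in the tumour pairs all 4 Dbp points lie below 0, down to -4.10.

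Probe sets of 1 gene did not always move together. For the ACKR2 effect in non-tumour tissue, 4 of 20 clock probe sets were called, all lower, in a fit over all probe sets, which called 6.62% of them lower: Nr1d1, 1458176_at of Per3, 1438033_at of Tef and 1457740_at of Arntl. Tef set 1438033_at had 54.4 in ACKR2KO against 353 in WT colon, and 22.3 in ACKR2KO against 289 in WT small intestine. Its difference of -2.32 ± 0.29, a bound because both ACKR2KO values lay under the floor, was opposite in sign to the 0.50 of set 1424175_at and the 0.37 of set 1450184_s_at. For Per3, set 1458176_at gave -1.30 ± 0.24 and set 1421087_at gave 0.31 ± 0.30. Set 1421087_at had 633 in ACKR2KO against 399 in WT colon, and 217 in ACKR2KO against 225 in WT small intestine. In colon tumours these same sets of Tef and Per3 shared their sign.

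**Figure D4:**
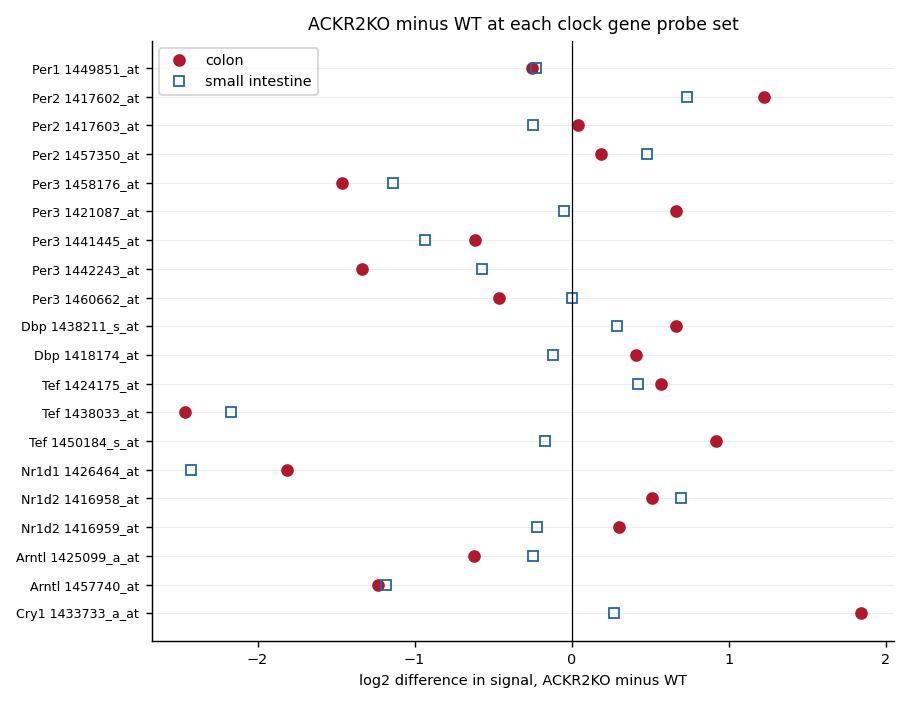
Log2 difference in signal of ACKR2KO minus WT at each clock gene probe set in colon and in small intestine, 1 array against 1 other per point and values under 64.1 set to it. The 3 sets of Tef fall on both sides of 0, with 1438033_at furthest below it, as do the sets of Per3.

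Between the tissues, 5 of 9 clock genes were higher in non-tumour colon than in non-tumour small intestine (13.0% of all genes). Dbp led with 4392 and 2775 in ACKR2KO and WT colon, against 1590 and 1304 in ACKR2KO and WT small intestine, a difference of 1.28 ± 0.22 (adjusted p = 0.0122). Per3 (1.14 ± 0.24, adjusted p = 0.0240), Per1 (0.83 ± 0.21, adjusted p = 0.0395), Nr1d2 (0.61 ± 0.15, adjusted p = 0.0336) and Tef (0.60 ± 0.16, adjusted p = 0.0449) followed. Between colon and small-intestinal tumours 0 were called (13.1% of all genes in either direction), with 3 clock genes and 4253 genes in all at an unadjusted p under 0.05. Dbp, at -0.72 ± 0.22 (adjusted p = 0.0896), then had the other sign. Without both WT arrays the differences in non-tumour tissue were 1.47 for Dbp, 0.97 for Per3, 0.81 for Per1, 0.67 for Tef and 0.52 for Nr1d2.

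Beyond these genes, 5 further lists hold 30 clock genes, of which 27 were tested. In colon tumours 5 were lower (12.6% of all genes) and 4 higher (11.0% of all genes), and the median was -0.13. The 5 lower genes included Hlf (-2.26 ± 0.32, adjusted p = 0.00723), the third D-box activator beside Dbp and Tef, Cry2 (-1.48 ± 0.27, adjusted p = 0.0153), and the Arntl activator Rora (-1.32 ± 0.26, adjusted p = 0.0178). The deubiquitinase gene Usp2 and the glucocorticoid target Tsc22d3 were lower too, at -1.78 and -1.11. The higher genes were the kinase gene Csnk1e (1.15), Timeless (0.94) and Tipin (0.88), whose proteins act together at replication forks, and Nfil3 (1.21), a repressor at D-boxes whose non-tumour colon values lay below the floor.

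The partner of Arntl, Clock, had 2341 in ACKR2KO_ApcMin and 1585 in ApcMin colon tumours, against 2280 in ACKR2KO and 1914 in WT colon, and was not called. In small-intestinal tumours the repressor gene Bhlhe40 was higher, by 1.42 ± 0.14 (adjusted p = 0.00677), with 2924 in ACKR2KO_ApcMin and 3010 in ApcMin tumours, against 1066 in ACKR2KO and 1150 in WT tissue. On ACKR2 loss in non-tumour tissue 4 of the 27 were higher (0.128% of all genes): Tsc22d3 (1.93), the cell-cycle kinase gene Wee1 (1.40), the NAD synthesis gene Nampt (1.17) and Coq10b (1.13).

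Markers of other cell types moved with the tumour comparison. The summed signal of 10 smooth muscle genes was 9834 in ACKR2KO_ApcMin and 36200 in ApcMin colon tumours, against 116329 in ACKR2KO and 137523 in WT colon. In small intestine it was 12570 in ACKR2KO_ApcMin and 27173 in ApcMin tumours, against 69977 in ACKR2KO and 65271 in WT tissue. All 10 of these genes were lower in colon tumours (median -3.58) and 7 of 10 in small-intestinal tumours. On ACKR2 loss in tumours 1 of 10 was called, lower, with a median of -1.90. Of 8 tested neuronal and glial genes 5 were lower in colon tumours, and 9 of 9 tested proliferation genes were higher. The summed signal of 10 leukocyte genes was 10830 to 16508 on the tumour arrays, against 4107 to 5894 on the non-tumour arrays. Only 2 of these 10 were called higher in colon tumours (11.0% of all genes) and 1 lower (12.6%), with a median of 0.08. In small-intestinal tumours 3 were higher (2.77%) and 0 lower. The largest leukocyte signals in colon tumours were S100a8 and S100a9, at 7478 and 3594 in ACKR2KO_ApcMin and 7695 and 4681 in ApcMin. Of 10 glucocorticoid response genes 5 were lower in colon tumours and 1 higher. The part of composition in the lower clock gene signals was not tested.

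On ACKR2 loss in non-tumour tissue 0 of 10 muscle genes were called (median -0.15). The genes whose log2 signal was most like Dbp over the 8 arrays, among 6790 compared, were Prkg1 (Pearson r = 0.987), Neurl1b (0.986), Reln (0.980), Sspn (0.975) and Pde1b (0.975). The most opposite were Rell1 (-0.973), the intestinal stem cell gene Lgr5 (-0.957), Pcdh19 (-0.954), the mitotic kinesin gene Kif20a (-0.953) and Dock11 (-0.952). Sspn, for instance, had 106 in ACKR2KO_ApcMin and 295 in ApcMin colon tumours, against 1480 in ACKR2KO and 1204 in WT colon.

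Among the clock genes, Tef (0.960), Per1 (0.922) and Per2 (0.874) were most like Dbp, while Arntl was at 0.24 and Cry1 at 0.08. For Arntl the most like were Ankrd13d (0.917), Ip6k1 (0.916), Retn (0.908), Thoc2l (0.893) and Atg13 (0.892), and the most opposite Lonrf1 (-0.960), Mplkip (-0.949), Dsn1 (-0.938), Ccdc126 (-0.934) and Shtn1 (-0.923). Lonrf1, for example, was lowest on both WT arrays, at 323 in colon and 279 in small intestine, where Arntl was highest at 610 and 623. Of the clock genes Cry1 was the most opposite to Arntl, at -0.36, and Nr1d1 the most like it, at 0.62. These coefficients describe 8 arrays that share tissue, tumour status and scaling.

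**Figure D5:**
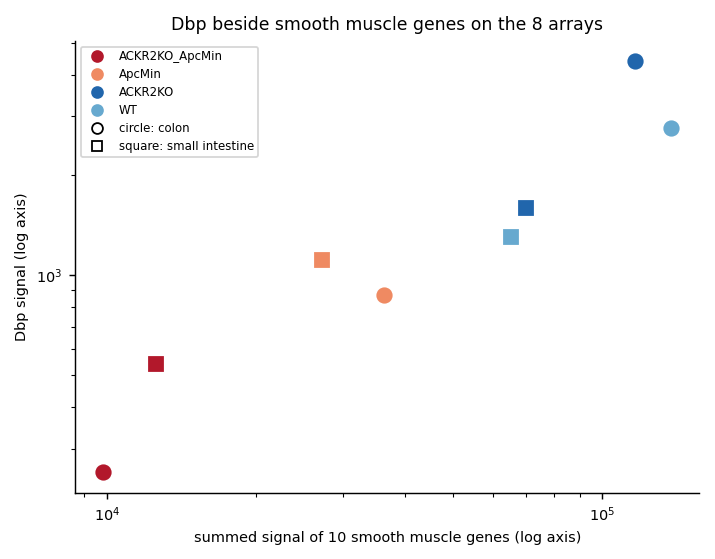
Dbp signal against the summed signal of 10 smooth muscle genes, 1 point per array, both on log axes; circles are colon and squares small intestine. The 4 tumour arrays lie at muscle sums of 9834 to 36200 with Dbp at 256 to 1110, and the 4 non-tumour arrays at 65271 to 137523 with Dbp at 1304 to 4392.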

How the data were processed

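RNA of whole tissue or tumours was hybridised to 8 Affymetrix 3' arrays, 1 per group. Per the submitters' processing notes the authors used MAS5 and Partek, and the deposited values are intensities on a linear scale with a trimmed mean of 500 per array (2% left out at each end). The build and software versions are not given in the sources used here, and raw array files were not used here. Of 45101 probe sets, 34945 were assigned to 1 gene. Values under 64.1, the median over arrays of the 40th percentile, were set to it and log2 was taken; the probe set with the highest mean stood for its gene, and 14023 of 18193 genes, those above that floor on at least 2 arrays, entered the test. Differences that involve the floor are bounds.

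One model in limma 3.58.1 (R 4.3.3), with 6 coefficients (4 combinations of tissue and tumour status, and an ACKR2 effect for tumours and for non-tumour tissue, each shared by the tissues), gave all contrasts. Residual degrees of freedom were 2, plus 4.16 prior ones from the trended empirical Bayes step. Tests were two-sided, with Benjamini-Hochberg adjustment over all genes. With 1 pool per group, p-values carry no spread between animals, and the number of arrays limits the precision. The code was tested on simulated arrays. Alternatives were other floors, filters, scalings, probe set rules and models, no trend, and leaving out each array; leaving out both WT or both ACKR2KO_ApcMin arrays was added after the data were seen.

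The 10 clock genes and the gene lists were chosen with earlier results of these data known. Genes named were the 10, listed genes that passed, and the 5 most and 5 least correlated with Dbp and with Arntl over the 8 arrays, among genes above the floor on all of them with a range of at least 1 on the log2 scale. The lists of epithelial and early stress genes were also summed: over all arrays they ran from 115845 to 170709 and 19426 to 26787. Some listed clock genes are not reported here. Promoter windows came from RefSeq (GRCm38.p6).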

Additional observations from a re-analysis of the deposited data

Results flagged for a closer look

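One result differed between the tissues by a test of the difference itself. The tumour effect on Dbp was stronger in colon than in small intestine, by -1.99 ± 0.31 on the log2 scale (limma's interaction, adjusted p = 0.0402). Dbp had 256 in ACKR2KO_ApcMin and 870 in ApcMin colon tumours, against 4392 in ACKR2KO and 2775 in WT colon, and 541 in ACKR2KO_ApcMin and 1110 in ApcMin small-intestinal tumours, against 1590 in ACKR2KO and 1304 in WT tissue. Over the settings tried the difference ran from -2.36 to -1.63 and its adjusted p from 0.0210 to 0.515. The summed smooth muscle signal differed with the tissue too, at 9834 and 36200 in those colon tumours against 116329 and 137523 in colon, and 12570 and 27173 in those small-intestinal tumours against 69977 and 65271. Its part in the Dbp difference was not tested.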

How the results depend on the processing

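No paired analysis was possible because each group holds 1 array, so no replicate number could serve as a block; the model itself compares tissues within genotypes and ACKR2 genotypes within tissues. Leaving out any 1 array left 1 residual degree of freedom and gave 0 clock genes called in every comparison (lowest 0, highest 0). Outside the comparison of the tissues without tumours, no other gene was called in those fits either. Leaving out both WT or both ACKR2KO_ApcMin arrays also gave 0 clock genes, as did testing all genes with no filter in the 6 comparisons that had calls. Among 21 called gene results, 199 of 461 other values kept their call, 261 lost it with the same sign, and 1 turned, Per2 averaged over tissues (0.20 without both ACKR2KO_ApcMin arrays). The colon tumour count was 5 to 7 under all the remaining settings.

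The ACKR2 effect in non-tumour tissue gave 1 clock gene, and 2 with no floor, with the filter on all 8 arrays, with every probe set tested or with 1 ACKR2 effect for all arrays, 6 with median centring, and 0 with the mean of probe sets or no trend. The ACKR2 effect in tumours gave 2 instead of 0 with the filter on all 8 arrays and with 1 ACKR2 effect. The 5 clock genes higher in non-tumour colon than in small intestine became 2 with median or 75th percentile centring, 3 with no trend and 1 with 1 ACKR2 effect. The tissue difference of Dbp was not called (0) with the floor at the 60th percentile, median or 75th percentile centring, the mean of probe sets, no trend or 1 ACKR2 effect, and 2 genes were called with the filter on all 8 arrays. Nr1d1 in small-intestinal tumours was lost (0) with 1 ACKR2 effect.

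Signs turned for uncalled gene results. With median centring, ACKR2 loss in tumours gave Cry1 0.0095 and Nr1d2 0.12, and in non-tumour tissue Arntl 0.12 and Per1 0.31. The mean of probe sets gave Tef -0.48 in non-tumour tissue. With 1 ACKR2 effect, tumours had Arntl -0.0183, Cry1 0.39, Nr1d2 0.22 and Per2 0.0338, and non-tumour tissue had Dbp -0.46 and Tef -0.0259. Leaving out 1 array, the tumour effect on Cry1 ran from -0.42 to 0.36 averaged over tissues, from -0.58 to 0.99 in colon and from -1.06 to 0.51 in small intestine, where Per2 ran from -0.68 to 0.32 and Tef from -0.32 to 0.070. Without both WT arrays Arntl and Cry1 in colon were 0.071 and -0.85. Without both ACKR2KO_ApcMin arrays, Cry1 was 0.64 averaged and 0.39 in small intestine, where Per2 was 0.52 and Tef 0.30.

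Scaling moved the split of all genes called. With median centring, higher and lower calls were 1328 and 1889 averaged over tissues (1844 and 1679 as deposited), 253 and 221 in small-intestinal tumours (389 and 168), 1043 and 815 between tumours of colon and small intestine (808 and 1032) and 113 and 111 for the tissue difference of the tumour effect (103 and 213). For ACKR2 loss in non-tumour tissue, 75th percentile centring gave 402 and 178 (18 and 78), and for the tissues without tumours 1332 and 1467 (1821 and 1178). Testing every probe set, ACKR2 loss in non-tumour tissue had 441 higher and 1706 lower of 25776 probe sets, in place of 18 and 78 of 14023 genes.

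The cause of these changes was not tested, apart from the lower residual degrees of freedom when arrays are left out.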

Other observations

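The WT small-intestine array was set against the other 3 small-intestine arrays in further genes, picked after their values were seen. Cyp2c55, a cytochrome P450 gene of the colonic epithelium, was 9970 in WT small intestine and 608 to 1147 on the other 3, against 340 to 13211 in colon. Atp12a, a proton pump gene of the colon, did not set it apart, at 24.2 in WT small intestine and at most 21.8 on the other 3, against 1199 to 19128 in colon. Nr1d1 was 1710 in WT small intestine and 188 to 354 on the other 3, and it was 2143 in WT colon, where Car1 carries no such mismatch.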
